A study of Mus musculus with 6 samples.

Results

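The 49 genes described here encode the enzymes of glycolysis, gluconeogenesis, fructose breakdown and the citric acid cycle, with kinases that switch off pyruvate dehydrogenase. They were taken from a table of 18849 genes by symbol, and 49 of 49 were found. Whole-kidney RNA was sequenced from male C57BL/6 mice, 8 weeks old, after 14 days of unilateral ureteral obstruction (UUO), in which a tied ureter injures the tubules and scars the kidney. The first group has 3 libraries of c-Ablflox/flox mice, whose Abl1 alleles carry loxP sites but are intact, and it is called floxed here although its genotype label reads WT. The second group has 3 libraries of c-AblEpi-cKO mice, which carry the same floxed alleles plus Ksp-Cre, a Cre recombinase driven by the promoter of kidney-specific cadherin in tubule epithelium, and whose genotype label reads c-Abl knockdown. Both groups were obstructed, so each value compares 1 injured genotype with the other, and cells without Ksp-Cre keep Abl1 in the knockout. Expression is given as FPKM, fragments scaled to transcript length and library size, so levels of different genes can be set side by side. Differences are knockout minus floxed on the scale log2(FPKM + 1), and values of single libraries stand in the order of replicates 1, 2 and 3.

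Glycolysis splits glucose to pyruvate, and gluconeogenesis runs most of the same reactions backwards, replacing the irreversible kinase steps with bypass enzymes. The kidney proximal tubule makes glucose from lactate and amino acids, takes up fructose, and depends on mitochondrial oxidation for its energy, while distal segments and infiltrating leukocytes rely more on glycolysis. Pyruvate dehydrogenase links the glycolytic product to the citric acid cycle, which feeds electrons to the respiratory chain.

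The spacing of low FPKM values put the libraries at about 16250000 to 18200000 fragments, so that 1 FPKM in a 2-kb transcript stands for 32.5 to 36.4 fragments. The targeted gene Abl1 measured 18.16, 15.93 and 17.33 FPKM in the floxed libraries, against 10.46, 14.45 and 12.91 FPKM in the knockouts, a lower level without overlap that did not pass limma's test (adjusted p = 0.144, exact permutation p = 0.1, the smallest that 3 against 3 libraries allow). Knockout replicate 3 stood apart from its group: across the genes tested its correlation was 0.968 to 0.969 with the floxed libraries and 0.941 and 0.960 with knockout replicates 1 and 2. Floxed replicate 1 likewise correlated at 0.966 with each of the other floxed libraries, which reached 0.987 with each other, and at 0.968 with knockout replicate 3. Its T and B cell markers summed to 158 FPKM, against 23.4 to 38.7 FPKM in the other 5 libraries. Without floxed replicate 1, limma called 0 members in either direction. At an unadjusted p under 0.05 that fit gave 21 members higher and 1 lower, against 7.26% and 11.5% of all genes. Results are given with and without knockout replicate 3, and since that library was singled out for lying near the floxed libraries, leaving it out raises counts by that choice. The labels do not say that each library came from its own mouse, and the p-values cover the spread among these libraries, which may be technical. The tissue label was borne out by kidney markers, the thick limb protein Umod reading 433.88 to 929.21 FPKM over the 6 libraries, while 5 of 5 striated muscle and 4 of 4 adipocyte markers in the table stayed under 1 FPKM. Processed pseudogenes resemble several members (Gapdh, Tpi1, Eno1, Aldoa, Pgam1 and Ldha), and how their reads were counted is not given, so those levels are uncertain.

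Most of these genes read higher in the knockout kidneys, and none passed the test over all genes. The fitted difference was above 0 for 44 of 49 members and below 0 for 5 (Hk2, Hk3, Pkm, Pklr and Pck2), with a median of 0.58 against -0.12 over the 13390 genes tested. By limma with Benjamini-Hochberg adjustment over all genes, 0 members were called higher and 0 lower, where 0.0299% of all genes were called higher and 0.0373% lower. Limma gave 31 members (63.3%) higher and 1 lower at an unadjusted p under 0.05, against 8.38% of all genes higher and 16.3% lower. The knockout libraries lay wholly above the floxed libraries for 31 members, against 10.0% of all genes, and wholly below for 1 member, Hk3, against 21.7%. Without knockout replicate 3, limma called 36 members higher and 2 lower (Hk2 and Hk3), against 9.07% and 15.8% of all genes. The 11 not called there were Hk1, Pfkl, Pfkp, Pkm, Pklr, Pgam1, Ldha, Ldhb, Pck2, G6pc3 and Pdk1. Centring the libraries by median ratios moved the median of all genes from -0.12 to -0.01 and the share of higher genes among those at an unadjusted p under 0.05 from 34.0% to 49.0%. The members then counted 35 higher and 1 lower at that unadjusted p, against 12.0% and 12.5% of all genes.

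**Figure D1:**
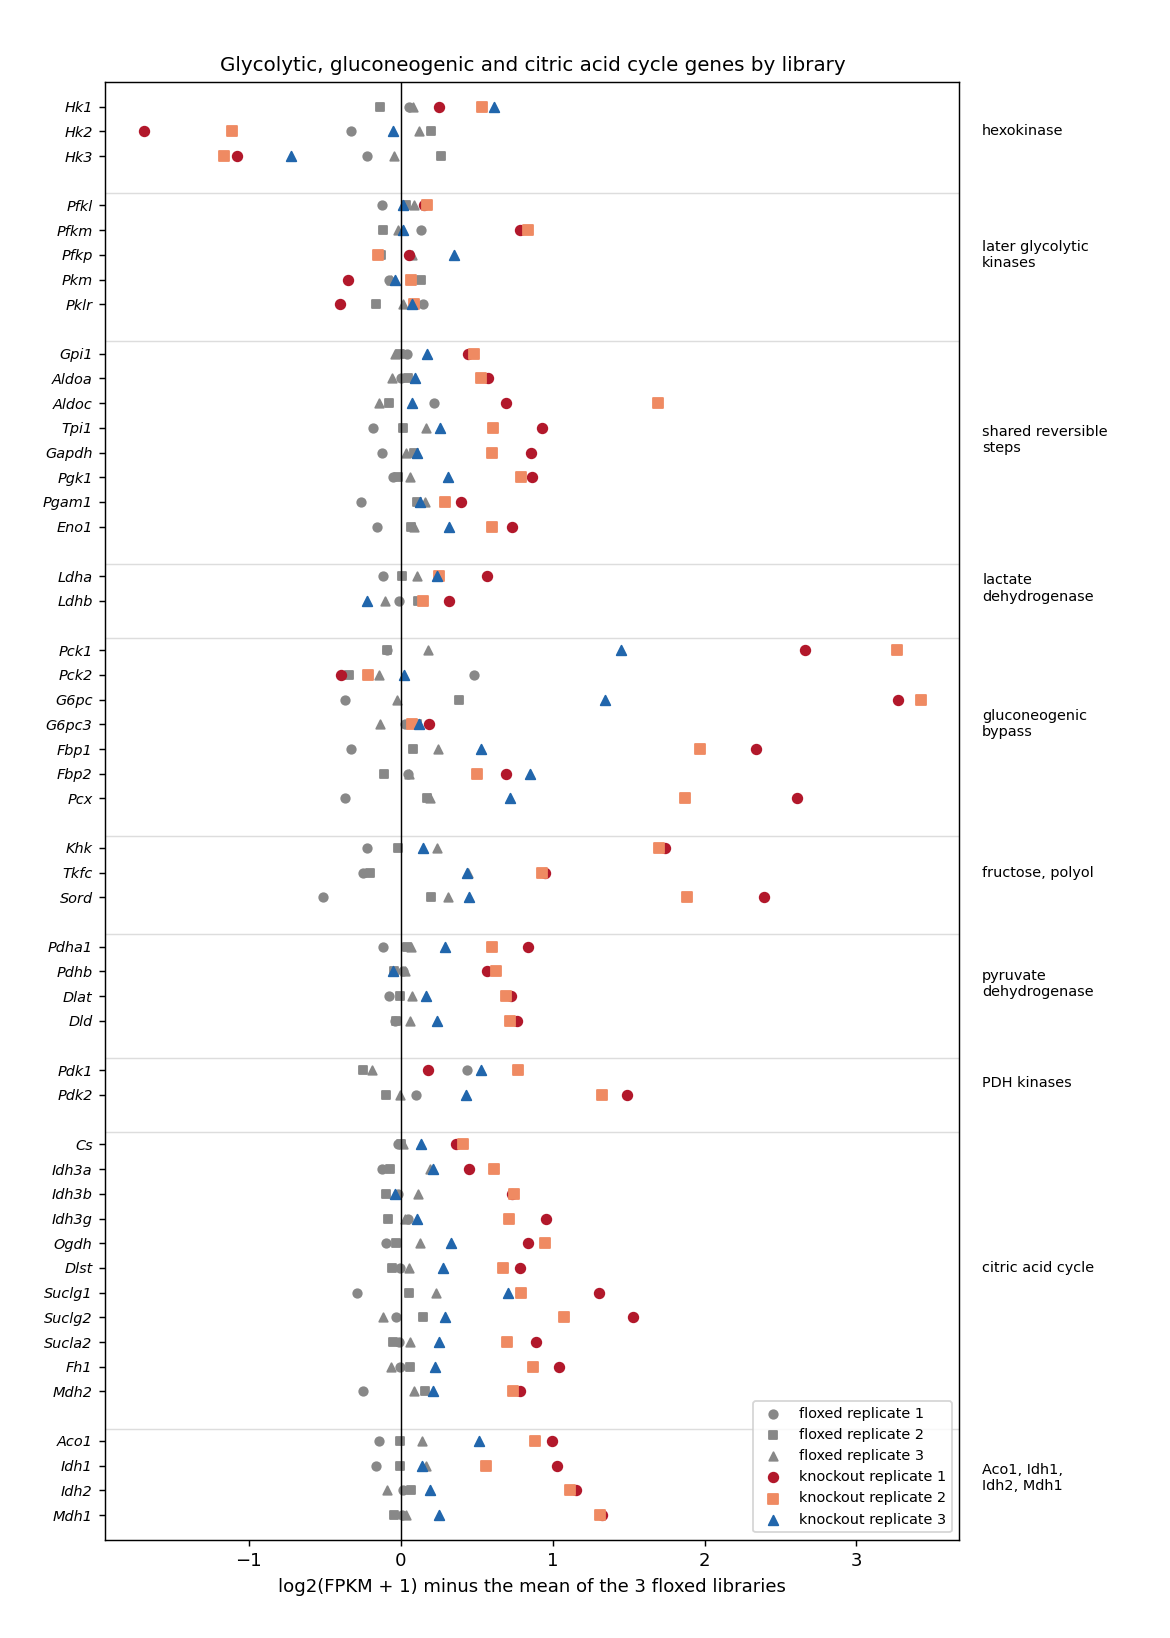
Each row is 1 of the 49 genes, grouped by role. Points give log2(FPKM + 1) in each library minus the mean of the 3 floxed libraries, grey for floxed and coloured for knockout. Knockout replicates 1 and 2 lie to the right of the floxed libraries for most genes, and replicate 3 lies closer to 0, with G6pc and Pck1 farthest right and Hk2 and Hk3 to the left.

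The gluconeogenic bypass enzymes held the members with the highest folds. Pck1, the cytosolic phosphoenolpyruvate carboxykinase that commits oxaloacetate to glucose, measured 111.86, 111.68 and 134.63 FPKM in the floxed libraries, against 756.53, 1155.63 and 326.35 FPKM in the knockouts. The groups did not overlap, and knockout replicate 3 stood well below the other two. The difference was 2.46 (SE 0.426) with a limma adjusted p of 0.0547, just outside the threshold. G6pc, the catalytic subunit of glucose-6-phosphatase that releases free glucose, measured 7.2, 12.8 and 9.41 FPKM in the floxed libraries, against 101.18, 112.17 and 25.86 FPKM in the knockouts. Again all 3 knockout libraries lay above the floxed ones, with a difference of 2.68 (SE 0.541, limma adjusted p = 0.0651).

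Fbp1, the fructose-1,6-bisphosphatase of liver and kidney, measured 74.21, 99.14 and 110.95 FPKM in the floxed libraries, against 477.71, 368.79 and 135.55 FPKM in the knockouts. Knockout replicate 3 exceeded the highest floxed library by a small margin (difference 1.61, SE 0.450, limma adjusted p = 0.107). Its muscle-type relative Fbp2 had another order among the knockouts, with 16.43, 14.64 and 16.53 FPKM in the floxed libraries against 26.25, 22.87 and 29.34 FPKM in the knockouts. There knockout replicate 3 was the highest library, and the groups stood apart (difference 0.68, SE 0.130, limma adjusted p = 0.0633). Pcx, the mitochondrial pyruvate carboxylase that makes oxaloacetate, measured 10.98, 16.42 and 16.68 FPKM in the floxed libraries, against 93.16, 55.55 and 24.5 FPKM in the knockouts, also without overlap (difference 1.73, SE 0.449, limma adjusted p = 0.0954). Without knockout replicate 3, singled out for lying near the floxed libraries, Pck1, G6pc, Fbp1, Fbp2 and Pcx were all called higher by limma. Their adjusted p-values were 0.00282, 0.00282, 0.00343, 0.0188 and 0.00514, and 9.07% of all genes were called higher there.

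The other isoenzymes of this group overlapped between the genotypes. Pck2, the mitochondrial carboxykinase, measured 40.85, 22.74 and 26.15 FPKM in the floxed libraries, against 21.87, 24.85 and 29.42 FPKM in the knockouts. The groups overlapped, the 95% interval of the difference ran from -0.74 to 0.35 (limma adjusted p = 0.605), and its sign turned, to 0.045, without floxed replicate 1. G6pc3, the broadly expressed glucose-6-phosphatase subunit, measured 38.83, 40.93 and 34.47 FPKM in the floxed libraries, against 43.4, 40.12 and 41.33 FPKM in the knockouts. Its interval ran from -0.14 to 0.39 (limma adjusted p = 0.488), so an increase of the size seen for G6pc lay outside it. Pck1 made up 73.2%, 83.1% and 83.7% of the summed carboxykinase FPKM in the floxed libraries, against 97.2%, 97.9% and 91.7% in the knockouts. The exact two-sided permutation p of that share was 0.1, or 0.3 after Benjamini-Hochberg adjustment over the 12 isoenzyme shares compared, of which 9 are reported.

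Upstream sequences of the pairs Pck1 and Pck2, and G6pc and G6pc3, are shown because within each pair the fitted differences lay far apart. They come from RefSeq's GRCm38.p6 annotation, another build than the mm9 of the deposited values, and run 5′ to 3′ on the plus strand, starting 250 bases before the annotated start and ending before the first exon base that GENCODE M21 places there. Capitals mark the motif GTTAAT, the motif TGACG (a half-site of the cAMP response element) or CACGTG (an E-box), searched on both strands.
Pck1, chr2:173152823-173153047: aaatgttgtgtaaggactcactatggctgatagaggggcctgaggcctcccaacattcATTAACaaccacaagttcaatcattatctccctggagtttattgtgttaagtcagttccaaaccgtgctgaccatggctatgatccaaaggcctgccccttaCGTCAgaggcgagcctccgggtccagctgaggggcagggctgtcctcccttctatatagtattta
Pck2, chr14:55540016-55540265: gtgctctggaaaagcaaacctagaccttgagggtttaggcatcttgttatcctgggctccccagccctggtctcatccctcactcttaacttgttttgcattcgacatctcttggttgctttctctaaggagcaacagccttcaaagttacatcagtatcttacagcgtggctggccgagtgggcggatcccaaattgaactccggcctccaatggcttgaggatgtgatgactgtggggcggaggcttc
G6pc, chr11:101367466-101367560: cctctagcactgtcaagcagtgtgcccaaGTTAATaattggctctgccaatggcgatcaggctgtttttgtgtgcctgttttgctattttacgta
G6pc3, chr11:102189449-102189619: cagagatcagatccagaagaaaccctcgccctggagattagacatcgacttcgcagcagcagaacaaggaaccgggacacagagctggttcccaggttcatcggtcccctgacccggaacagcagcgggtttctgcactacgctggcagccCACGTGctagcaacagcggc

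GTTAAT lay 192 to 187 bases before the start of Pck1 and 221 to 216 bases before that of G6pc, and the Pck1 window also held the cAMP half-site at 90 to 86 bases. The 250 bases of G6pc3 held E-boxes at 99 to 94 and, past the end of the printed stretch, 79 to 74 bases, and that of Pck2 held none of the 3 motifs. Over the 250 bases upstream, GTTAAT occurred in 6.43% of all 32851 RefSeq windows and in 5.80% of the 69 windows of the 48 members matched (G6pc, Khk, Pck1 and Pdha1). TGACG occurred in 17.8% of all and 24.6% of member windows (12 members), and CACGTG in 6.02% and 14.5% (8 members). The 250 bases held 5 CpG dinucleotides for Pck1 and 2 for G6pc, 6 for Pck2 and 15 for G6pc3, where the median was 14 over the 35 members with a single window and 6 over all windows. Of those 35 members, the 9 with at most 9 CpGs (Fbp1, Fbp2, G6pc, Gapdh, Hk3, Pck1, Pck2, Suclg2 and Tkfc) had a median difference of 0.77 and the other 26 a median of 0.58. These matches describe letters in a window and say nothing of binding.

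Hexokinases, which trap glucose as glucose-6-phosphate, did not share a direction. Hk1, the broadly expressed form bound to mitochondria, measured 29.94, 26.21 and 30.51 FPKM in the floxed libraries, against 34.48, 42.15 and 44.72 FPKM in the knockouts. All 3 knockout libraries lay above the floxed range and replicate 3 was the highest (difference 0.47, SE 0.137, limma adjusted p = 0.114). Hk2, the inducible form, measured 4.79, 7.34 and 6.88 FPKM in the floxed libraries, against 1.25, 2.36 and 6.01 FPKM in the knockouts. Here knockout replicate 3 fell inside the floxed range (difference -0.95, SE 0.402, limma adjusted p = 0.204). Hk3, a form found mainly in myeloid cells, measured 4.03, 6.03 and 4.68 FPKM in the floxed libraries, against 1.78, 1.62 and 2.55 FPKM in the knockouts, the single member whose knockout libraries all lay below the floxed ones (difference -0.99, SE 0.192, limma adjusted p = 0.0635). The summed hexokinase FPKM overlapped between the groups, at 40.1 ± 1.72 in floxed and 45.6 ± 7.90 in knockout kidneys (SD, n = 3 each). Within that sum the share of Hk1 was 72.0% ± 5.53 in floxed and 89.1% ± 4.46 in knockout kidneys, that of Hk2 was 15.8% ± 3.14 and 6.58% ± 4.17, and that of Hk3 was 12.3% ± 2.61 and 4.35% ± 0.724 (SD, n = 3 each, exact permutation p = 0.1 and 0.3 after adjustment for each).

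The 9 macrophage markers read lower alongside Hk3. All 9 were below 0, with a median of -1.15, and their summed level was 1754 to 2576 FPKM over the floxed and 695 to 1331 FPKM over the knockout libraries. In bulk tissue fewer cells of a type and less RNA per cell cannot be told apart, and the part of macrophage content in the Hk3 values was not tested. None of these 9 markers was at 0 in a library.

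The glycolytic kinases after hexokinase showed no common direction. The phosphofructokinase forms, which commit fructose-6-phosphate to glycolysis, are Pfkl, Pfkm and Pfkp. Pfkm, the muscle-type form, measured 10.59, 8.74 and 9.44 FPKM in the floxed libraries, against 17.22, 17.92 and 9.7 FPKM in the knockouts. Knockout replicate 3 lay within the floxed range (difference 0.55, SE 0.233, limma adjusted p = 0.204). It passed as higher without knockout replicate 3 (limma adjusted p = 0.00917). Pfkl, the liver-type form, measured 14.84, 16.67 and 17.38 FPKM in the floxed libraries, against 18.19, 18.44 and 16.42 FPKM in the knockouts. Pfkp, the platelet-type form, measured 41.68, 36.6 and 42.44 FPKM, against 41.73, 36.15 and 51.41 FPKM. Both overlapped (differences 0.11 and 0.09, limma adjusted p = 0.558 and 0.740), and Pfkp turned to -0.047 without knockout replicate 3. The summed phosphofructokinase FPKM did not overlap, at 67.11, 62.01 and 69.26 in the floxed and 77.14, 72.51 and 77.53 in the knockout libraries. That sum was not tested. Of the summed phosphofructokinase FPKM, Pfkp held 60.8% ± 1.60 in floxed and 56.8% ± 8.54 in knockout kidneys, Pfkl 24.7% ± 2.41 and 23.4% ± 2.13, and Pfkm 14.5% ± 1.13 and 19.8% ± 6.47 (SD, n = 3 each, exact permutation p = 0.5, 0.6 and 0.4).

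Pyruvate kinase, the last kinase of the pathway, overlapped between the groups in both its forms. Pkm, the form of most tissues, measured 175.41, 202.93 and 176.86 FPKM in the floxed libraries, against 145, 193.42 and 179.97 FPKM in the knockouts. Pklr, the form of liver and red cells that the proximal tubule also makes, measured 34.69, 27.7 and 31.45 FPKM in the floxed libraries, against 23.41, 33.2 and 32.8 FPKM in the knockouts. Both overlapped, with 95% intervals of -0.46 to 0.25 and -0.48 to 0.32 around differences of -0.11 and -0.08, which median-ratio scaling turned to 0.016 and 0.040. Pkm held 85.5% ± 2.30 of the summed pyruvate kinase FPKM in floxed and 85.3% ± 0.758 in knockout kidneys (SD, n = 3 each, exact permutation p = 0.9).

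**Figure D2:**
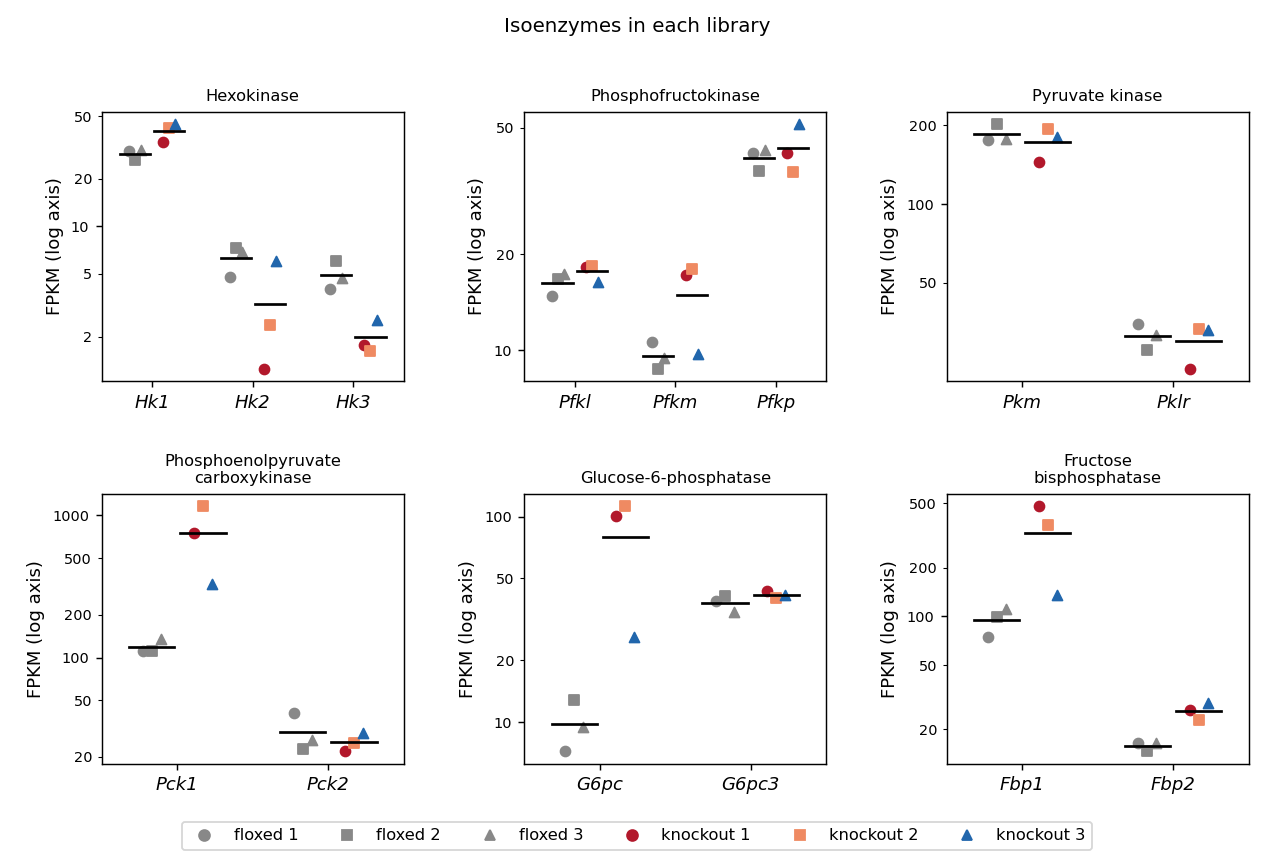
FPKM on log axes for the isoenzymes of 6 steps, 1 point per library and a black line at each group mean, grey for floxed and coloured for knockout. Pck1, G6pc and Fbp1 stand above the floxed libraries in all 3 knockout libraries while Pck2 and G6pc3 overlap, and Hk1 lies above the floxed libraries where Hk3 lies below them.

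Levels of opposing enzymes can be set against each other within a library, which cancels any factor common to both. The ratio of G6pc to the summed hexokinases was 0.186, 0.323 and 0.224 in floxed and 2.70, 2.43 and 0.485 in knockout replicates 1, 2 and 3. The ratio of Fbp1 plus Fbp2 to the phosphofructokinases was 1.35, 1.83 and 1.84 in floxed and 6.53, 5.40 and 2.13 in knockout kidneys, and that of Pck1 to the pyruvate kinases 0.532, 0.484 and 0.646 against 4.49, 5.10 and 1.53. In each of these 3 ratios the knockout libraries lay above the floxed range, and knockout replicate 3 came next to it. The pairs were chosen after values were seen. Their numerators already lay above the floxed range, so the ratios add no separate evidence. The ratio of the lactate dehydrogenase subunits Ldhb to Ldha, also computed, overlapped, at 3.82 ± 0.459 in floxed and 3.16 ± 0.387 in knockout kidneys (SD, n = 3 each). Transcript ratios are not fluxes, and no test was made of them.

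**Figure D3:**
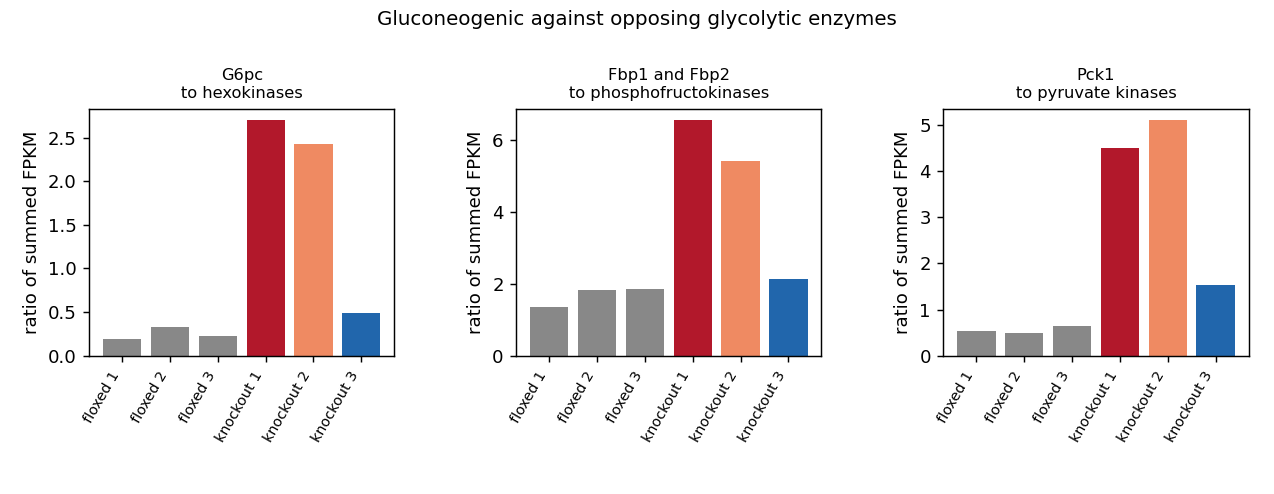
Bars give, for each library, the FPKM of gluconeogenic bypass enzymes divided by the summed FPKM of the glycolytic kinases that run the opposite step, on linear axes from 0. Knockout replicates 1 and 2 reach 2.43 to 6.53 and the floxed libraries 0.186 to 1.84, with knockout replicate 3 at 0.485, 2.13 and 1.53.

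The enzymes that serve both directions read higher in the knockout kidneys, 8 of 8 above 0 with a median of 0.54. Pgk1, phosphoglycerate kinase, had the smallest p among them and measured 165.85, 169.29 and 179.19 FPKM in the floxed libraries, against 312.53, 296.87 and 212.95 FPKM in the knockouts. The groups did not overlap (difference 0.65, SE 0.172, limma adjusted p = 0.0975). Eno1, the main enolase, measured 242.37, 283.2 and 287.05 FPKM in the floxed libraries, against 450.55, 410.42 and 337.78 FPKM in the knockouts (difference 0.55, limma adjusted p = 0.113). Tpi1, triose phosphate isomerase, read 187.95, 215.57 and 240.15 FPKM against 407.19, 326.47 and 256.09 FPKM, again without overlap (difference 0.60, limma adjusted p = 0.140). Aldoa, the aldolase of most tissues, measured 533.06, 550.5 and 510.51 FPKM in the floxed libraries, against 790.31, 768.43 and 567.95 FPKM in the knockouts. Gpi1, Aldoa and Gapdh stood 1.30-fold, 1.33-fold and 1.46-fold higher in mean FPKM with the groups apart, while Pgam1 (1.20-fold) and the brain-type aldolase Aldoc overlapped. Gapdh, often taken as a reference gene, measured 1083.46, 1255.35 and 1212.47 FPKM in the floxed libraries, against 2140.47, 1791.03 and 1271 FPKM in the knockouts (difference 0.52, limma adjusted p = 0.227).

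Aldoc stayed low, at 2.32, 1.7 and 1.58 FPKM in the floxed libraries against 3.6, 8.23 and 2 FPKM in the knockouts, the highest in replicate 2. The 2 lactate dehydrogenase subunits, which interconvert pyruvate and lactate, are Ldha and Ldhb. Ldha, the muscle-type subunit, measured 304.79, 331.69 and 355.76 FPKM in the floxed libraries, against 490.83, 393.36 and 390.13 FPKM in the knockouts. Its groups stood apart (difference 0.35, SE 0.153, limma adjusted p = 0.209). Ldhb, the heart-type subunit and the most abundant of the 49 genes in floxed kidneys, read 1243.71, 1356.14 and 1170.05 FPKM against 1566.82, 1387.87 and 1074.99 FPKM (difference 0.08, limma adjusted p = 0.817), and turned to -0.038 without knockout replicate 1. The share of Ldha in the summed subunits was 20.9% ± 2.11 in floxed and 24.2% ± 2.29 in knockout kidneys (SD, n = 3 each, exact permutation p = 0.2).

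Enzymes of fructose and sorbitol breakdown were high in knockout replicates 1 and 2 and closer to the floxed libraries in replicate 3. Khk, ketohexokinase, which phosphorylates fructose, measured 78.12, 90.12 and 107.76 FPKM in the floxed libraries, against 307.39, 299.06 and 101.25 FPKM in the knockouts. Knockout replicate 3 fell inside the floxed range (difference 1.20, SE 0.423, limma adjusted p = 0.153). Sord, sorbitol dehydrogenase, which turns sorbitol into fructose, measured 82.02, 134.64 and 145.65 FPKM in the floxed libraries, against 618.62, 434.81 and 160.21 FPKM in the knockouts (difference 1.57, SE 0.494, limma adjusted p = 0.128). The groups did not overlap for Sord. Tkfc, which phosphorylates the triose released from fructose, read 55.24, 57.02 and 89.92 FPKM against 127.69, 126.14 and 89.49 FPKM, knockout replicate 3 just below the highest floxed one (limma adjusted p = 0.119). Without knockout replicate 3, singled out for lying near the floxed libraries, all 3 were called higher (limma adjusted p = 0.00343 to 0.0294), as were 9.07% of all genes.

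Subunits of the pyruvate dehydrogenase complex, which turns pyruvate into acetyl-CoA, lay above 0 in 4 of 4 cases with a median of 0.55. Pdha1, the catalytic alpha subunit, measured 80.23, 89.53 and 91.31 FPKM in the floxed libraries, against 156.51, 132.07 and 106.56 FPKM in the knockouts. Dld, the dihydrolipoyl dehydrogenase shared with the oxoglutarate complex, read 72.7, 72.99 and 77.95 FPKM against 127.26, 123.21 and 88.12 FPKM, and the acetyltransferase Dlat 20.77, 21.86 and 23.15 FPKM against 36.93, 36.01 and 24.77 FPKM. These 3 were apart between the groups, with differences of 0.58, 0.57 and 0.53 and limma adjusted p-values of 0.108, 0.109 and 0.132. Pdhb, the beta subunit, read 65.75 FPKM in knockout replicate 3, below the lowest floxed library at 66.09 FPKM, and 101.69 and 105.82 FPKM in replicates 1 and 2.

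Pyruvate dehydrogenase kinases inactivate that complex, and 2 of them are among the 49 genes. Pdk2, the widely expressed form, measured 44.12, 38.29 and 40.98 FPKM in the floxed libraries, against 117.1, 104.22 and 55.59 FPKM in the knockouts, all 3 above the floxed range (difference 1.08, SE 0.271, limma adjusted p = 0.0928). Pdk1, a target of hypoxia-inducible factor, read 9.28, 5.4 and 5.65 FPKM against 7.62, 11.98 and 9.95 FPKM and overlapped (difference 0.50, SE 0.237, limma adjusted p = 0.242). Pdk4, a fasting-induced relative outside the 49 genes, measured 13.98, 10.8 and 8.15 FPKM in the floxed libraries, against 14.98, 13.82 and 56.13 FPKM in the knockouts, with replicate 3 far above the other 5 libraries (limma adjusted p = 0.259).

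The core citric acid cycle showed small differences of 1 sign. All 11 enzymes stood above 0, between 0.30 and 0.97 with a median of 0.59, and 10 of the 11 were apart upward (10.0% of all genes), the exception being Idh3b. Suclg1, the common alpha subunit of succinyl-CoA ligase, had the smallest p and measured 44.72, 57.02 and 64.5 FPKM in the floxed libraries, against 136.65, 95.63 and 89.96 FPKM in the knockouts (difference 0.93, SE 0.207, limma adjusted p = 0.0748). Its partner Suclg2, which makes the GTP-forming ligase, read 69.28, 78.3 and 65.01 FPKM against 205.96, 149.83 and 86.83 FPKM (difference 0.97, SE 0.297, limma adjusted p = 0.122). The alternative partner Sucla2, of the ATP-forming ligase, read 44.55, 43.42 and 46.94 FPKM against 84.29, 73.8 and 53.66 FPKM. For these 3 subunits every knockout library exceeded every floxed library.

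Ogdh, the first subunit of the oxoglutarate dehydrogenase complex, measured 61.55, 64.38 and 72.03 FPKM in the floxed libraries, against 118.64, 128.09 and 82.99 FPKM in the knockouts (difference 0.71, SE 0.182, limma adjusted p = 0.0951). Dlst, its succinyltransferase, read 75.35, 72.62 and 78.29 FPKM against 130.85, 120.65 and 91.49 FPKM (difference 0.58, limma adjusted p = 0.0998). Citrate synthase, Cs, which opens the cycle, had the smallest floxed SD among these 11, with 82.74, 83.88 and 84.56 FPKM in the floxed libraries against 107.96, 111.72 and 92.15 FPKM in the knockouts. Its difference of 0.30 (SE 0.118, limma adjusted p = 0.178) was the lowest of the 11. Fumarase (Fh1) stood 1.70-fold, mitochondrial malate dehydrogenase (Mdh2) 1.51-fold and the isocitrate dehydrogenase subunits Idh3a, Idh3b and Idh3g 1.36-fold, 1.44-fold and 1.56-fold higher in mean FPKM. Idh3b overlapped because knockout replicate 3, at 92.92 FPKM, lay within the floxed range of 89.13 to 103.46 FPKM. Without knockout replicate 3, singled out for lying near the floxed libraries, all 11 were called higher by limma, with adjusted p-values from 0.00426 to 0.0342. In that fit 9.07% of all genes were called higher.

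Relatives of cycle enzymes that work in the cytosol or use NADP showed the same direction, 4 of 4 above 0 with a median of 0.81. Aco1, the cytosolic aconitase that doubles as iron regulatory protein 1, measured 32.47, 35.9 and 39.74 FPKM in the floxed libraries, against 72.66, 67.19 and 51.71 FPKM in the knockouts. All 3 knockout libraries were well above the floxed range (difference 0.80, SE 0.159, limma adjusted p = 0.0651). Mdh1, the malate dehydrogenase of the malate-aspartate shuttle, read 233.51, 224.91 and 237.43 FPKM against 581.46, 576.96 and 276.69 FPKM (difference 0.96, SE 0.293, limma adjusted p = 0.121). Idh2, the mitochondrial NADP-dependent isocitrate dehydrogenase, read 118.09, 122.61 and 109.55 FPKM against 260.62, 254.12 and 133.43 FPKM, also apart (limma adjusted p = 0.131). Its cytosolic relative Idh1 overlapped through knockout replicate 3, at 116.75 FPKM against a highest floxed value of 118.82 FPKM.

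Set side by side, the 3 branches had medians of unequal size. The 18 glycolytic enzymes, counting hexokinases, later kinases, shared steps and lactate dehydrogenase, had a median difference of 0.36, with 5 higher and 1 lower at an unadjusted limma p under 0.05 (8.38% and 16.3% of all genes) and 8 apart upward (10.0% of all genes). The 8 shared steps, which also serve gluconeogenesis, held 4 of those 5 higher and 6 of those 8 apart. The medians of hexokinases, later kinases and lactate dehydrogenase were -0.95, 0.09 and 0.22. The hexokinase median is the value of Hk2 alone, while Hk1, the largest part of the hexokinase FPKM, had a difference of 0.47. The 7 bypass enzymes had a median of 1.61, with 5 higher and 5 apart. The 15 subunits of pyruvate dehydrogenase and the core cycle had a median of 0.58, with 13 higher and 13 apart. By knockout library the medians were 0.42, 0.39 and 0.10 for the glycolytic, 2.34, 1.87 and 0.72 for the bypass and 0.79, 0.71 and 0.23 for the dehydrogenase and cycle genes. The order of the branches was the same in each knockout library, and the difference between branches was not tested. Of the 44 members above 0, knockout replicate 3 was the lowest knockout library for 39 (88.6%), against 55.3% of all tested genes above 0. It was the highest for 3, Hk1, Pfkp and Fbp2.

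**Figure D4:**
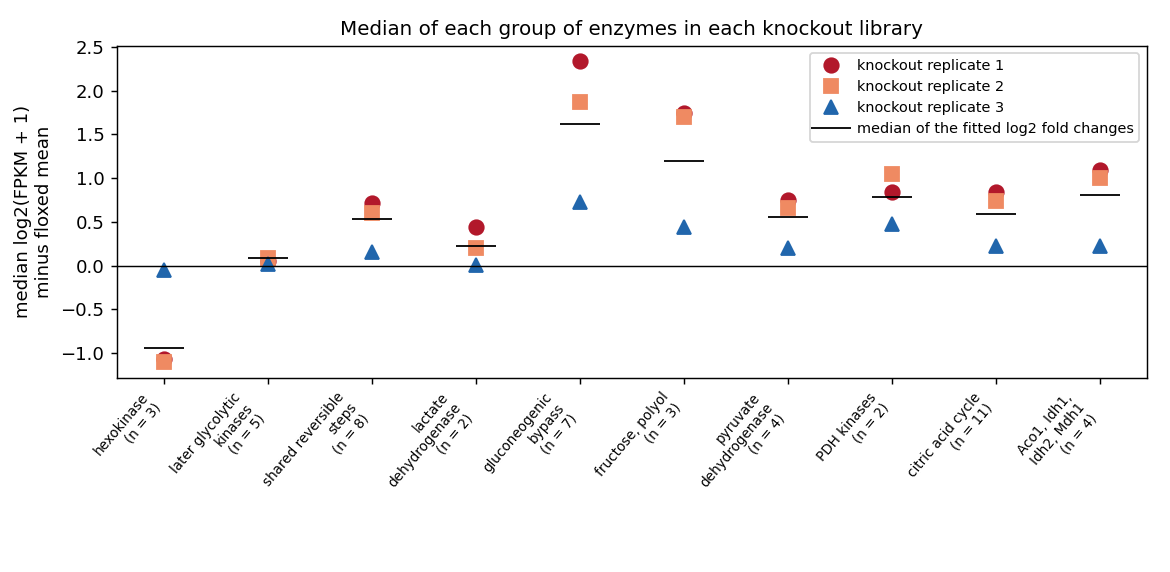
Each column is a group of enzymes with its number of genes. Points give the median of log2(FPKM + 1) minus the floxed mean in each knockout library, and the black bar the median fitted difference. The bypass group is highest, from 0.72 in replicate 3 to 2.34 in replicate 1, and the later glycolytic kinases lie near 0. The hexokinase median lies below 0 in replicates 1 and 2, although Hk1 by itself lies above 0 in both.

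Markers of kidney cell types read higher or lower alongside. Of 11 proximal tubule markers, 11 were above 0 with a median of 1.44, and 8 had an unadjusted limma p under 0.05 (8.38% of all genes higher). The groups overlapped for 5 of the 11, and knockout replicate 3 lay within the floxed range for 4. The summed level of these 11 markers was 848 to 1319 FPKM in floxed and 1190 to 4602 FPKM in knockout libraries. Their medians by knockout library were 1.94, 1.88 and 0.49. The glycolytic, the bypass, and the dehydrogenase and cycle genes all had that same order of libraries. The phosphate transporter Slc34a1, for one, measured 250.59, 367.58 and 398.78 FPKM in the floxed libraries, against 1562.88, 1463.95 and 324.67 FPKM in the knockouts. Markers of the thick limb and distal tubule (6 of 6) and of the collecting duct (6 of 6) were also above 0, with medians of 1.05 and 1.38. By knockout library the medians were 1.12, 1.63 and 0.49 for the thick limb and distal tubule. For the collecting duct they were 1.47, 2.40 and 0.48, so replicate 2 was the highest in both. All 8 fibroblast markers were below 0, with a median of -1.72 and a summed level of 541 to 684 FPKM against 103 to 346 FPKM. Fibroblast medians by knockout library were -2.07, -1.89 and -0.74, and macrophage medians -1.47, -1.38 and -0.61. In size both had the order of libraries seen for the proximal tubule markers. Podocyte (4 of 4), endothelial (6 of 6) and proliferation (5 of 5) markers were below 0 as well, with medians of -0.63, -0.38 and -0.84. Of the 13390 genes tested, 4629 were above 0 and 8761 below 0. None of the 11 proximal or 8 fibroblast markers was at 0 in a library. Their part in the values of the metabolic genes was not tested.

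Genes of the same pathways outside the 49 gave a mixed picture. Of 68 listed, 67 were in the table and 63 were tested, and limma called 0 higher and 0 lower, with 20 higher and 7 lower at an unadjusted p under 0.05 (8.38% and 16.3% of all genes). Without knockout replicate 3 it called 23 higher and 7 lower (9.07% and 15.8% of all genes). The succinate dehydrogenase subunit Sdhd, one of the other cycle enzymes, was at 88.7 ± 0.785 FPKM in floxed and 156 ± 28.9 FPKM in knockout libraries (SD, n = 3 each, limma adjusted p = 0.0651). The malic enzyme Me3 stood 1.90-fold higher (limma adjusted p = 0.0901), and the pyruvate dehydrogenase component Pdhx had a difference of 0.54 (limma adjusted p = 0.0986). The mitochondrial pyruvate carrier subunits Mpc1 and Mpc2 stood 1.80-fold and 1.71-fold higher (limma adjusted p = 0.116 and 0.118), and the glucose-6-phosphate carrier Slc37a4, which supplies G6pc, 2.71-fold (limma adjusted p = 0.0975). Glycerol-3-phosphate dehydrogenase Gpd1 and the phosphoglucomutase deposited as Pgm2 (Entrez gene 72157) stood 2.55-fold and 1.59-fold higher (limma adjusted p = 0.0847 and 0.0952). In the other direction were the phosphoglucomutase deposited as Pgm1 (Entrez gene 66681) at 0.778-fold, the ADP-dependent glucokinase Adpgk at 0.750-fold and the pyruvate dehydrogenase phosphatase Pdp1 at 0.670-fold (limma adjusted p = 0.188, 0.174 and 0.143). Their groups were apart, as were those of 21.7% of all genes downward. For Adpgk the gap was narrow, with knockout replicate 3 at 11.02 FPKM and floxed replicate 3 at 11.05 FPKM. The 5 bisphosphate regulators (Pfkfb1, Pfkfb2, Pfkfb3, Pfkfb4 and Tigar), which set the fructose-2,6-bisphosphate level, were all below 0, from -0.46 to -0.09, with 0 at an unadjusted p under 0.05. Of these only Tigar had its groups apart, at 0.789-fold (limma adjusted p = 0.242), where 21.7% of all genes were apart downward. The 8 pentose phosphate enzymes had a median of -0.09, with 3 above 0, 5 below 0 and 0 at an unadjusted p under 0.05. Their groups were apart upward for 1, Tkt, and downward for 2, Rpia and Rpe, where 10.0% of all genes were apart upward and 21.7% downward.

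Among 14 regulators of these pathways, 4 were higher and 4 lower at an unadjusted limma p under 0.05, against 8.38% and 16.3% of all genes. The nuclear receptor Ppara measured 3.72, 6.32 and 5.21 FPKM in the floxed libraries, against 14.8, 16.4 and 9.78 FPKM in the knockouts. Its groups were apart (limma adjusted p = 0.0627). Mlxipl, the carbohydrate-responsive factor ChREBP, stood 1.49-fold higher (limma adjusted p = 0.0979). The hypoxia factor Hif1a overlapped, at 26.3 ± 0.749 and 25.0 ± 4.09 FPKM (SD, n = 3 each, limma adjusted p = 0.730). The 4 lower were the hypoxia factor Epas1, Myc, Creb1 and Trp53, and all but Myc had their groups apart (21.7% of all genes downward). Epas1 read 33.2 ± 7.02 against 21.7 ± 4.13 FPKM (SD, n = 3 each, limma adjusted p = 0.142). Myc, a driver of glycolytic genes, read 16.54, 29.58 and 35.53 FPKM against 7.89, 11.28 and 20.7 FPKM and overlapped (limma adjusted p = 0.174).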

How the data were processed

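The deposited values are FPKM of the authors, 1 per gene and library, with 2 decimals. The submitters' processing notes name the build mm9. Of the aligner, counting tool, annotation and strand use, the sources used here say nothing. FPKM is relative to a library's mapped fragments, so abundant genes can shift the rest.

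A gene was tested where 3 or more of its 6 values reached 1 FPKM, which left 13390 genes, including all 49 members. Values were converted to log2(FPKM + 1), which understates changes of low genes, and compared by limma 3.58.1 (R 4.3.3) with a trended prior variance and genotype alone in the model, two-sided, with Benjamini-Hochberg adjustment over all genes tested at 0.05. The fit was tested on simulated data. Shares of isoenzymes had exact permutation tests over libraries. Python 3.11.15 with numpy 2.4.6 and pandas 2.3.3 read the table. Depth was estimated from transcripts of 300 to 2000 nucleotides, where 63.9% to 66.4% of low values came within 0.2 fragments of a whole number, against 40% for an even spread.

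The members, gene lists and tests were chosen with earlier results of these data known. By rule, values in every library are given for isoenzymes in the shares, bypass enzymes and up to 3 members per role with the smallest p. Results that need 3 genes outside the 49, the aldolase shares among them, are not reported here. Other genes named, the opposing ratios and the motifs were chosen after values were seen. Alternatives covered the pseudocount, low-value filter, scaling, variance trend, replicate block and leaving out each library.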

Additional observations from a re-analysis of the deposited data

How the results depend on the processing

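No member passed the adjusted limma threshold in either direction under 12 of the 13 alternatives, and without knockout replicate 3 there were 36 higher and 2 lower (range over libraries left out 0 to 36 and 0 to 2). At an unadjusted limma p under 0.05 the members higher ranged from 20 to 38 over libraries left out, 20 being the value without knockout replicate 2 (4.91% of all genes), and the members lower from 1 to 2. The members lower numbered 0 with a mean FPKM of at least 5, which removes Hk2, Hk3 and Aldoc, and 2 with TPM scaling. The same filter left Hk1 alone, so the hexokinase median became 0.47. The median of the later glycolytic kinases was 0.20 with median-ratio scaling and ranged from -0.047 to 0.12 over libraries left out. With median-ratio scaling Pkm and Pklr read 0.016 and 0.040. Over libraries left out, Pkm ranged from -0.19 to 0.015, Pklr from -0.16 to 0.081 and Ldhb from -0.038 to 0.23, each turning sign without knockout replicate 1, Pck2 from -0.36 to 0.045, turning without floxed replicate 1, and Pfkp read -0.047 without knockout replicate 3, the cause of each not tested. The difference in the isoenzyme share of Pkm ranged from -1.10 to 1.15 percentage points over libraries left out. The pathway genes outside the 49, compared under alternatives added after seeing the data, ranged from 0 to 23 called higher and 0 to 7 lower over libraries left out. The replicate numbers are shared by the groups, but same-numbered libraries did not deviate together (correlations across genes of -0.126, -0.070 and 0.034). These correlations rest on deviations from means of 3 libraries per group and cannot exclude pairing. With the replicate block 28 members were higher and 2 lower at an unadjusted limma p under 0.05 (7.29% and 13.8% of all genes), and 0 after adjustment. Depth limits no member, the lowest value being 1.25 FPKM.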
